A study of Mus musculus with 80 samples.

Results

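The genes described here encode voltage-gated calcium, sodium and potassium channels, the other potassium channels, and their auxiliary subunits. They were chosen by symbol: Kcn genes, Cacna1 genes, and Scn genes with a number followed by a or b, leaving out Kcnj8, Kcnq1ot1 and symbols that end in os. The rule took 101 of the 15919 genes listed for the sorting experiment and 102 of the 16000 listed for the preparation experiment, 102 channel genes in all. Kcnj15 was in the preparation experiment alone. By role they fell into 16 pore subunits of the Kv1 to Kv4 classes, 5 of Kv7, 8 of the EAG, ERG and ELK class, 7 silent Kv subunits, 10 calcium channel alpha1 subunits, 7 sodium channel alpha subunits, 4 sodium channel beta subunits, 13 inward rectifiers, 11 K2P channels, 8 potassium channels of the Slo and SK families and 13 potassium channel auxiliary subunits.

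Sodium channels carry the upstroke of the action potential, Kv channels shape its repolarisation and the firing pattern, and calcium channels couple depolarisation to calcium entry. Inward rectifiers and the K2P leak channels set the resting potential, and silent Kv subunits form channels only together with other Kv subunits. In the brain most of these genes are known from neurons, while astrocytes are known for Kcnj10 (Kir4.1) and Kcnj16 (Kir5.1), choroid plexus epithelium for Kcnj13 and Kcne2, and microglia for Kcnk13 (THIK-1), Kcnk6 (TWIK-2), Kcna3, Kcnn4 and Kcnj2.

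The study asked how ways of preparing mouse brain change the RNA measured from microglia. All mice were Cx3cr1(Jung)-cre/Ert2+;NuTRAP+ and received tamoxifen, 100 mg/kg body weight by daily intraperitoneal injection, at about 3 months of age, so that Cre-positive cells carried tagged ribosomes. From each preparation there was an Input library of total RNA and a TRAP library of RNA bound to the tagged ribosomes, giving 80 libraries from 22 mice. Cx3cr1 is active in microglia and also in border macrophages and some blood leukocytes. Brains were taken after a wait meant to let labelled blood cells be replaced, and TRAP RNA need not come from microglia alone.

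The sorting experiment (48 libraries) held Tissue, homogenised directly, Cell, an enzymatic suspension of unsorted cells, and suspensions sorted by autoMACS (CD11b beads), autoMACS to Tyto (beads, then a cartridge sorter), Tyto or FACSAria. "Sorted" below joins the 4 sort methods with equal weight. The preparation experiment (32 libraries) held Tissue, Cell(-), an enzymatic suspension without inhibitors, Cell(+), the same with inhibitors of transcription and translation, and Dounce, a suspension made by cold mechanical homogenisation. Each group had 4 libraries, except Tyto with 5 and autoMACS to Tyto with 3. The Tissue libraries of both experiments came from the same mice. In the preparation experiment Tissue, Cell and Dounce came from different mice, so preparation and mouse set cannot be told apart there. In the sorting experiment Tissue and Cell came from the same 4 mice and the sorted libraries from others, so sorting and mouse set cannot be told apart either. Whether the Tissue libraries of both experiments are separate preparations is not stated in the labels.

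Total counts were 7129451 to 18514971 in Input and 11795686 to 20168163 in TRAP libraries of the sorting experiment. In the preparation experiment they were 5107648 to 11262727 in Input and 2471428 to 14650332 in TRAP libraries, of which the 4 Dounce-TRAP libraries had 2471428 to 4724563. Levels are CPM with library sizes scaled by the TMM method, and CPM per kb of exon where genes are compared with each other. A gene was called higher or lower at an adjusted p under 0.1 with over 2-fold change in edgeR. Floors for zeros cover counting error only, and fewer cells of a type and less RNA per cell cannot be told apart in any of these comparisons.

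In autoMACS-Input replicate 3 the 10 microglia markers summed to 25105 CPM, the lowest of the 16 sorted Input libraries, and the 11 neuron markers listed summed to 70.6 CPM, the highest. Kcnd1 was 9.72 CPM there against 41.6 to 48.6 in the other autoMACS-Input libraries. Without it 8 channel genes were higher and 84 lower in Sorted-Input than in Cell-Input, against 8 and 83 with it. Other libraries departed from their groups in other marker lists, such as FACSAria-Input replicate 4, with 655 CPM for ependyma and choroid plexus against 15.3 to 40.6, and autoMACS to Tyto-Input replicate 3, with 908 CPM for blood cells against 37.1 and 74.3.

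Channel transcripts made up a smaller part of the RNA with each step from tissue to sorted cells. In the sorting experiment they took 8610 ± 237 CPM, here of the unscaled library total, in Tissue-Input (SD, n = 4), 3410 ± 170 in Cell-Input and 1030 ± 79.5 in Sorted-Input (n = 16). The TRAP fractions gave 7540 ± 246 in Tissue, 1330 ± 47.2 in Cell and 945 ± 56.1 in Sorted (n = 16). Every Cell library lay below every Tissue library of its fraction, and every sorted library below every Cell library. Mean values by sort method were close in Input, where autoMACS libraries had 1020 ± 109, autoMACS to Tyto 1010 ± 95.6, Tyto 1040 ± 93.6 and FACSAria 1040 ± 33.7. In the preparation experiment the Dounce suspension, at 9810 ± 477, was above Tissue-Input at 8890 ± 229, while Cell(-)-Input had 2990 ± 318 and Cell(+)-Input 3040 ± 325. Dounce-TRAP, at 3960 ± 614, lay between Tissue-TRAP at 7530 ± 483 and Cell(-)-TRAP at 1170 ± 125, with Cell(+)-TRAP at 1210 ± 50.5.

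**Figure D1:**
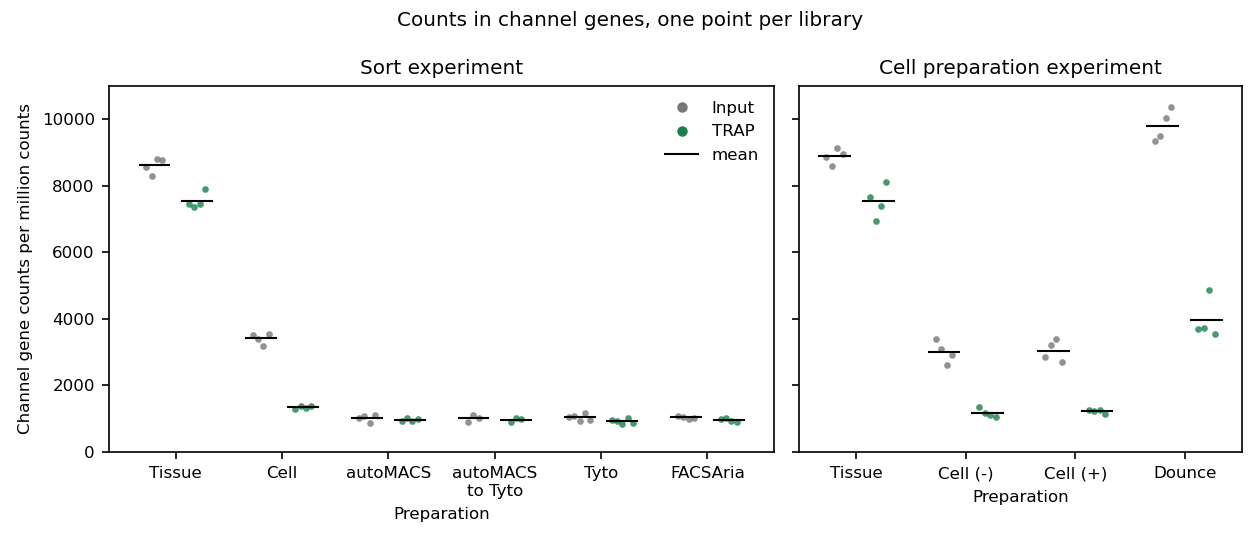
CPM of the unscaled library total that fell on channel genes in each library (points, Input and TRAP by colour) by preparation, sort and preparation experiment, with the group mean as a line. Dounce-Input and Tissue-Input libraries are highest, with means of 9810 and 8890 in the preparation experiment, and sorted libraries lowest.

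The make-up of this channel RNA also differed between preparations. In Tissue-Input it was spread over many genes: the Kv beta subunit Kcnab2 took 6.56% of all channel counts and the Kv1 pore Kcna2 6.2%, and the 10 most abundant genes took 49.2%. In Cell-Input the astrocytic inward rectifier Kcnj10 alone took 29.5%, followed by the K2P channel Kcnk1 with 6.07% and the Kv1 pore Kcna6 with 4.24%. In Sorted-Input Kcnk6 took 46.8%, Kcnk13 9.34% and Kcnj2 5.86%, and the first 10 genes took 90.9%. In Sorted-TRAP Kcnk6 took 50.7%, Kcnk13 11.6%, Kcnd1 5.54% and Cacna1d 4.48%, and the first 10 took 93.2%. Dounce-TRAP held a mixture, with Kcnk6 at 14%, Kcna2 at 7.29% and the sodium channel Scn8a at 5.86%.

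Per length, Kcnk6 was the most abundant channel gene of the sorted libraries, with a level of 126 ± 23.1 CPM per kb in Sorted-Input and 129.7 ± 19.1 in Sorted-TRAP (SD, n = 16). Kcnk13 had 33.1 ± 4.44 CPM per kb in Sorted-Input and 39.2 ± 4.19 in Sorted-TRAP. Kcnk12 (THIK-2) and Kcnj2 were at Sorted-Input levels of 12.9 ± 2.11 and 12 ± 3.37 CPM per kb, a pair whose spreads overlapped. In Tissue-Input Kcnab2 had 76.6 ± 1.32 CPM per kb (n = 4). In Cell-Input Kcnj10 was highest with 137 ± 20.1 CPM per kb, and Kcnk1 had 68.1 ± 6.63. In Tissue-Input 59 members had a mean level of 10 CPM or more and 9 were under 1 CPM. Cell-Input had 42 and 20 such members, Cell-TRAP 16 and 35, and the sorted groups 11 to 12 and 68 to 82.

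The genes given here had the highest mean CPM of their role in Tissue-Input. The means in Tissue-Input were 404 ± 4.34 CPM for Kcna2 among Kv1 to Kv4 pores and 106 ± 10.2 for Kcnh3 in the EAG, ERG and ELK class (SD, n = 4). The silent Kv subunit Kcnf1 had 128 ± 19.2 CPM and the sodium-activated potassium channel Kcnt1 86.2 ± 5.45. Among the voltage-gated cation channels the P/Q-type calcium channel Cacna1a had 126 ± 15.4 CPM and the sodium channel Scn8a 322 ± 5.44. Kcnj10 had 278 ± 17.8 CPM, Kcnk1 79.4 ± 6.83 and Kcnab2 427 ± 7.37. In sorted Input libraries the mean of Scn8a was 0.67 CPM, that of Kcnj10 25.5 and that of Kcnab2 7.29 (means of 16 libraries), and Kcna2 had 1.8, 3.28 and 36.3 CPM (lowest, median, highest).

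The comparison of Tissue-TRAP with Tissue-Input asks which channel transcripts of intact tissue were bound to tagged ribosomes. Kcnk6 (Entrez 52150, chromosome 7) stood out. Its levels in Tissue-Input were 3.12, 5.36, 3.76 and 4.79 CPM and in Tissue-TRAP 77.9, 77.1, 79 and 69 CPM. All 4 TRAP libraries were far above all 4 Input libraries, and the level rose 17.7-fold (log2 fold change 4.15, SE 0.19, adjusted p = 2.38e-22). Cacna1f, the Cav1.4 calcium channel subunit, was the other member called higher, at levels under 1 CPM: 0.24, 0, 0.046 and 0.26 CPM in Input and 0.51, 0.51, 0.21 and 0.46 in TRAP (log2 fold change 1.55, adjusted p = 0.0586). Its groups overlapped. The K2P channel Kcnk5 (TASK-2) had 1.07, 0.65, 0.74 and 0.78 CPM in Input and 0.32, 0.19, 0.21 and 0.12 in TRAP, without overlap, and fell (log2 fold change -1.93, adjusted p = 0.032). The potassium channel beta subunit Kcne2 had 3.51, 3.17, 3.94 and 2.61 CPM in Input and 0.97, 0.83, 1.75 and 0.81 in TRAP, again without overlap, and was called lower (log2 fold change -1.58, adjusted p = 0.098).

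So 2 of 101 members were higher, beside 9.23% of all genes tested, and 2 were lower, beside 1.87%. The median log2 difference was -0.18 over the members and 0.03 over all genes. No other member of any role passed, and Kcnk13, with 8.25, 11.3, 9.83 and 11.4 CPM in Input and 14.7, 11.9, 19 and 14.7 in TRAP (log2 fold change 0.56, adjusted p = 0.0019), had every TRAP library above every Input library without reaching the 2-fold change. Over the same contrast all 10 microglia markers were higher, their summed level going from 309.9 to 6528 CPM. None of 11 neuron markers passed, with summed levels of 7462 and 7205 CPM, 3 of 8 ependyma and choroid plexus markers were lower (816 and 194 CPM), as were 8 of 8 oligodendrocyte markers, and the part of other cells' RNA in the TRAP levels of channel genes was not tested. The weak calls, of Cacna1f and Kcne2, each ended in several refits without 1 library. That of Cacna1f ended without Tissue-Input replicate 2 (log2 fold change 1.15, adjusted p = 0.194) or 3 (1.27) or Tissue-TRAP replicate 1 (1.44), 2 (1.44) or 4 (1.49). That of Kcne2 ended in DESeq2 (adjusted p = 0.233) and without any 1 of these libraries: Tissue-Input replicate 1 (log2 fold change -1.54), 2 (-1.60), 3 (-1.48) or 4 (-1.68), or Tissue-TRAP replicate 1 (-1.52), 2 (-1.47) or 4 (-1.46). Kcnn4 (log2 fold change 0.75, adjusted p = 0.177) passed without Tissue-Input replicate 1 (1.09, adjusted p = 0.0609), and Kcnj13 (log2 fold change -1.11, adjusted p = 0.197) with the preparation as a block (adjusted p = 0.028).

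In the enzymatic suspension TRAP separated channel genes strongly. Of 9 glia-linked members 3 were higher in Cell-TRAP than in Cell-Input, beside 16.8% of all genes, and 4 were lower, beside 30.9%. This list was made with earlier results of these data known, so its counts here and below are descriptive. Kcnk6 had 70.7, 106, 86.7 and 77.4 CPM in Cell-Input and 516, 646, 609 and 567 in Cell-TRAP, a 6.86-fold rise with no overlap (log2 fold change 2.78, SE 0.17, adjusted p = 1.99e-18). Kcnd1 (Kv4.1, Entrez 16506, chromosome X) had 9, 8.34, 9.71 and 6.31 CPM in Input and 38.9, 38.2, 46.8 and 48.4 in TRAP and rose 5.17-fold (log2 fold change 2.37, adjusted p = 8.67e-13). Its lowest TRAP library was well above its highest Input library. Cacna1f stayed rare, with 0.22, 0.16, 0.089 and 0 CPM in Input and 1.03, 0.25, 0.89 and 0.69 in TRAP (log2 fold change 2.56, adjusted p = 0.000379). Each TRAP value was above the Input values. The K2P channels Kcnk12 (7.05, 7.7, 5.68 and 5.61 CPM in Input, 14.3, 18.3, 26.3 and 22.1 in TRAP) and Kcnk13 (36.5, 41.3, 38.8 and 31.1 and 76.6, 83, 100.5 and 100.3) also rose, with log2 fold changes of 1.64 and 1.29. Neither had overlapping groups. Cacna1d (Cav1.3) and Kcnj2 (Kir2.1) completed the 7 higher members, with log2 fold changes of 1.07 and 1.00.

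At the other end, Kcnt2, a sodium-activated potassium channel, had 0.72, 0.48, 1.03 and 0.94 CPM in Cell-Input and 0 in each Cell-TRAP library, so it was at least 3.82-fold lower (floor of 3 counts per library; adjusted p = 2.36e-06). Kcne2 had 41.7, 9.62, 33 and 41.2 CPM in Input and 1.25, 0, 0.65 and 1.31 in TRAP (log2 fold change -5.24, adjusted p = 1.82e-07). Cell-Input replicate 2 was low among its group and still above every TRAP library. The silent subunit Kcng1 had 0.56, 0.59, 0.27 and 0.7 CPM in Input and 0, 0, 0.059 and 0 in TRAP (log2 fold change -4.39, adjusted p = 4.62e-05), with a count in Cell-TRAP replicate 3 alone, so the fitted size is no bound. The choroid plexus channel Kcnj13 had 39.8, 10.8, 36.1 and 41.7 CPM in Input and 2.57, 0, 2.01 and 1.81 in TRAP (log2 fold change -4.30). Kcnj10 had 616, 732, 737 and 881 CPM in Input and 98.6, 82.8, 117 and 139.6 in TRAP (log2 fold change -2.76), and its partner Kcnj16 60.9, 73.9, 86.4 and 99.7 and 14.3, 15.5, 18.5 and 24.8 (-2.13), both without overlap. Other falls, as log2 fold changes, were the Kv1 pores Kcna6 at -4.28 and Kcna1 at -3.93, the sodium channels Scn9a at -3.80 and Scn7a at -3.36, the BK beta subunit Kcnmb4 at -3.13 and Kcnq3 at -3.11, the last being a Kv7 pore. Without Cell-TRAP replicate 1 Scn7a was -4.45 and Kcnq3 -3.84, and DESeq2 gave -4.51 for Scn9a. Kcna3, at 2.5, 1.98, 1.57 and 1.44 CPM in Input and 2.28, 1.81, 1.84 and 1.12 in TRAP, and Kcnn4, at 3.22, 1.23, 4.52 and 4.07 and 4.93, 2.55, 2.49 and 2.81, overlapped between fractions and were not called (log2 fold changes -0.09 and -0.04).

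In all 7 of 101 members were higher in Cell-TRAP, beside 16.8% of all genes, and 76 were lower, beside 30.9%. The median log2 difference was -1.75 over members and -0.07 over all genes, and DESeq2's size factors moved the latter to -0.48. By role 12 of 13 potassium channel auxiliary subunits, 6 of 7 sodium channel alpha subunits, 6 of 7 silent Kv subunits, 6 of 8 EAG, ERG and ELK pores and 12 of 16 Kv1 to Kv4 pores were lower, while 3 of 11 K2P channels and 2 of 10 calcium channel alpha1 subunits were higher. Marker sums moved too: microglia from 5612 to 37074 CPM (10 of 10 higher), neuron from 822 to 223 (10 of 11 lower), astrocyte from 7964 to 1825 and oligodendrocyte from 10959 to 537 (9 of 9 and 8 of 8 lower), and ependyma and choroid plexus from 3209.6 to 173 (8 of 8 lower). Under DESeq2 or its size factors 4 members were higher, as Kcnk13 (0.88), Cacna1d (0.66) and Kcnj2 (0.59) then fell short of 2-fold. With a filter of 10 counts the values of Cacna1d and Kcnj2 were 0.81 and 0.75, and Kcnj2 also fell short without Cell-Input replicate 1 (0.95) or 4 (0.94) or Cell-TRAP replicate 3 (0.93) or 4 (0.98).

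The difference between these fraction effects, TRAP against Input in Cell less the same in Tissue, was tested as an interaction. It was positive for 3 members. Kcnd1 had 4.2, 4.62, 3.57 and 3.18 CPM in Tissue-Input and 4.89, 6.26, 8.09 and 6.74 in Tissue-TRAP, a small step beside that in Cell given above (log2 difference 1.62, adjusted p = 4.76e-05). Kcnk12 had 11.9, 11.4, 16.7 and 14.4 and 18, 13.5, 18.1 and 17.8 CPM in the Tissue fractions, which overlapped (1.34, adjusted p = 5.21e-05). Cacna1d had 28.2, 26.2, 28.8 and 33.6 CPM in Tissue-Input, 23.1, 29, 24.5 and 29.6 in Tissue-TRAP, 18.2, 18.1, 18.6 and 16 in Cell-Input and 38.6, 38, 36.9 and 35.5 in Cell-TRAP. Its fractions overlapped in Tissue and were apart in Cell (1.21, adjusted p = 2.1e-07, and 0.88 with DESeq2's size factors, under the 2-fold change).

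The interaction was negative for 68 members, beside 29.5% of all genes, against 3 positive, beside 5.74%. The median was -1.72 over members and -0.29 over all genes, the latter -0.61 with DESeq2's size factors. Kcng1 had 9.66, 6.95, 8.16 and 11 CPM in Tissue-Input and 10.2, 10.2, 10.6 and 14.6 in Tissue-TRAP, with no fall between them, and was almost at 0 in Cell-TRAP (-4.74, a fitted size and no bound, adjusted p = 0.000142). Kcna6 had 88.3, 77.6, 87.9 and 91.2 and 71, 60.6, 69.8 and 73.3 CPM in the Tissue fractions, 119, 132, 94.8 and 80.4 in Cell-Input and 6.18, 6.74, 4.44 and 4.69 in Cell-TRAP. Its Tissue fractions were near each other, and its Cell fractions were an order apart (-3.95, adjusted p = 1.3e-10). Kcnt2 had 3.9, 3.68, 4.78 and 4.96 and 2.57, 2.43, 1.91 and 3.54 CPM in the Tissue fractions and 0 in Cell-TRAP, so its fitted size is no bound and is not read here (adjusted p = 0.000216). Further negative log2 differences were Kcna1 at -3.72, Kcne2 at -3.66, Kcnq3 at -3.54, Scn9a at -3.40, Kcnj13 at -3.19 and Kcna2 at -2.91, with Kcnq3 at -4.27 without Cell-TRAP replicate 1 and Scn9a at -4.03 in DESeq2. Kcnk6, higher in TRAP in both preparations, had a smaller step in Cell (-1.37, adjusted p = 7.6e-06), and 9 of 10 microglia markers were negative likewise. So were 11 of 11 neuron, 9 of 9 astrocyte, 8 of 8 oligodendrocyte, 7 of 7 endothelium and 7 of 8 ependyma and choroid plexus markers. Among glia-linked members outside the call, Kcnj2 (0.93) passed without Cell-Input replicate 3 (1.03) or Cell-TRAP replicate 2 (1.01). Kcnn4 (-0.78) passed with DESeq2's size factors (-1.11) or without Cell-Input replicate 2 (-1.07), Cell-TRAP replicate 1 (-1.07) or Tissue-Input replicate 1 (-1.13).

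Making an enzymatic suspension changed the Input RNA of most channel genes. All sodium channel beta subunits, silent Kv subunits and EAG-class pores fell, beside 17.5% of all genes. Of 9 glia-linked members 8 rose, beside 28.5%. Kcnk6 went from 3.12, 5.36, 3.76 and 4.79 CPM in Tissue-Input to 70.7, 106, 86.7 and 77.4 in Cell-Input, a 21.3-fold rise (log2 fold change 4.42, SE 0.23, adjusted p = 6.88e-14). Kcnmb1, the BK beta subunit of smooth muscle, went from 0.78, 0.28, 0.65 and 1.04 to 9.05, 7.16, 8.68 and 8.5 CPM (log2 fold change 3.68, adjusted p = 8.86e-05). Kcnk5 went from 1.07, 0.65, 0.74 and 0.78 to 11.6, 8.34, 12 and 7.1 CPM (log2 fold change 3.67, adjusted p = 5.24e-06). All 3 had every Cell library above every Tissue library. Scn4b, a sodium channel beta subunit, went from 179, 162, 168 and 167 CPM in Tissue-Input to 11.7, 7.8, 4.34 and 6.81 in Cell-Input, 20.8-fold lower (log2 fold change -4.38, SE 0.30, adjusted p = 1.07e-11). The silent subunit Kcnv1 went from 28.1, 21.6, 28.3 and 35.4 to 1.61, 1.12, 1.61 and 0.99 CPM (log2 fold change -4.30, adjusted p = 1.8e-09). The Kv3 pore Kcnc2, known from fast-spiking interneurons, went from 76.6, 66.4, 76 and 76.5 to 5.5, 2.51, 4.07 and 3.08 CPM (log2 fold change -4.19, adjusted p = 4.82e-11). These falls, too, left no overlap.

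The glia-linked genes, listed with earlier results known, were mostly higher in Cell-Input, 8 of 9 passing, beside 28.5% of all genes. Kcnj10 went from 252, 292, 287 and 280.1 to 616, 732, 737 and 881 CPM (log2 fold change 1.51) and Kcnj16 from 29.2, 29.9, 29.2 and 24.9 to 60.9, 73.9, 86.4 and 99.7 (1.60). Kcnj13 went from 5.66, 4.2, 3.99 and 4.13 to 39.8, 10.8, 36.1 and 41.7 CPM (2.93) and Kcne2 from 3.51, 3.17, 3.94 and 2.61 to 41.7, 9.62, 33 and 41.2 (3.34), with Cell-Input replicate 2 the lowest in both. Kcnk13 went from 8.25, 11.3, 9.83 and 11.4 to 36.5, 41.3, 38.8 and 31.1 CPM (1.95), and the intermediate-conductance channel Kcnn4 from 0.88, 0.33, 0.46 and 0.48 to 3.22, 1.23, 4.52 and 4.07 (2.69). None of these 6 overlapped between groups. Kcnj2 went from 9.03, 9.98, 10.5 and 10.4 to 17.8, 19.8, 23.5 and 16.9 CPM (1.06), near the 2-fold limit, and fell short of it with DESeq2's size factors (0.97), one fit of the experiment (0.96), the mouse as a block (0.92) and without Cell-Input replicate 3 (0.95). Kcna3 (Kv1.3), with 1.42, 1.17, 1.44 and 0.96 and 2.5, 1.98, 1.57 and 1.44 CPM, was not called (0.68).

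In all 17 of 101 members were higher in Cell-Input than in Tissue-Input, beside 28.5% of all genes, and 67 were lower, beside 17.5%, with medians of -1.96 over members and 0.17 over all genes. Lower were 8 of 8 EAG, ERG and ELK pores, 7 of 7 silent Kv subunits, 4 of 4 sodium channel beta subunits, 6 of 7 sodium channel alpha subunits and 7 of 10 calcium channel alpha1 subunits. K2P channels split, with 4 of 11 higher and 4 lower, as did inward rectifiers, with 4 of 12 higher and 7 lower. Further rises, as log2 fold changes, were Kcnq1 at 2.64, Kcne4 at 2.21 and Kcnn3 at 1.95. Further falls were Kcng1 at -3.98, Scn1a at -3.93, Scn8a at -3.74, Kcnq5 at -3.63, Kcnj4 at -3.60 and Kcnf1 at -3.49. All 11 neuron markers were lower, their sum going from 7462 to 822 CPM, while microglia markers (10 of 10, 309.9 to 5612), astrocyte markers (6 of 9, 3218 to 7964), ependyma and choroid plexus markers (8 of 8, 816 to 3209.6) and mural cell markers (5 of 5, 95.5 to 388) were higher. No marker of these lists was at 0 in either group, and their part in the channel changes was not tested.

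The TRAP fractions of the same preparations also differed for most channel genes. Kcnk6 went from 77.9, 77.1, 79 and 69 CPM in Tissue-TRAP to 516, 646, 609 and 567 in Cell-TRAP (log2 fold change 2.96, adjusted p = 7.97e-17), Kcnd1 from 4.89, 6.26, 8.09 and 6.74 to 38.9, 38.2, 46.8 and 48.4 (log2 fold change 2.73, adjusted p = 1.34e-15) and Kcnk5 from 0.32, 0.19, 0.21 and 0.12 to 2.28, 1.15, 1.42 and 1.62 (log2 fold change 2.93, adjusted p = 0.000193). None of the 3 had overlapping groups. Kcnk13 (2.59), Kcnj2 (1.91), with 9.97, 10.2, 11.2 and 10.6 CPM in Tissue-TRAP and 38.8, 32.6, 44.2 and 40.6 in Cell-TRAP, and Kcnn4 (1.83), with 1.61, 0.96, 0.57 and 0.52 and 4.93, 2.55, 2.49 and 2.81, rose as well, without overlap. Kcng1 was 10.2, 10.2, 10.6 and 14.6 CPM in Tissue-TRAP and 0, 0, 0.059 and 0 in Cell-TRAP (log2 fold change -8.82, adjusted p = 8.88e-13), and with 1 library above 0 the fitted size is no bound. Kcnt2 was 2.57, 2.43, 1.91 and 3.54 CPM in Tissue-TRAP and 0 in Cell-TRAP, at least 12.6-fold lower (adjusted p = 2.8e-07). The sodium channel Scn9a was 3.6, 5.11, 3.87 and 3.37 and 0, 0.082, 0 and 0.062 CPM (log2 fold change -6.55, adjusted p = 2.14e-08, and -7.18 in DESeq2). These 3 were at or near 0 in every Cell-TRAP library. Further falls were those of Kcnip4 (a Kv4 partner), Scn4b, Kcnq5, Kcnc2, Kcnab1 and Scn8a, with log2 fold changes from -6.19 to -5.66, and Kcnq5 moved from -6.00 to -7.12 without Cell-TRAP replicate 1.

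Of 99 members tested 7 were higher in Cell-TRAP, beside 25.1% of all genes, and 79 were lower, beside 29.3%, with medians of -3.70 over members (-3.66 with Kcnt2 at its bound) and -0.01 over all genes (-0.34 with DESeq2's size factors). All 7 sodium channel alpha subunits, 4 beta subunits, 7 silent Kv subunits and 8 EAG, ERG and ELK pores were lower. The seventh higher member, Kcnq1, was weak (log2 fold change 1.12, adjusted p = 0.0683). Its call ended with DESeq2 (0.80) or one fit (1.11), and without Cell-TRAP replicate 2 (0.93), 3 (1.05) or 4 (1.05) or Tissue-TRAP replicate 1 (1.04), 3 (1.18) or 4 (1.04). Lower were 11 of 11 neuron and 4 of 9 astrocyte markers, and 10 of 10 microglia and 7 of 7 endothelium markers were higher.

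Sorting asks what remains of channel RNA once CD11b-positive or labelled cells are taken from the suspension. In Input the K2P channels Kcnk6, Kcnk12 and Kcnk13, the pores Kcnd1, Kcna7 and Kcnj2 and 2 L-type calcium channels were higher after sorting, and most other members were lower. Of these, Cacna1f and Kcna7, with Cell-Input means of 0.12 and 0.22 CPM, did not reach the count filter in Cell-Input. Cacna1f did not reach it in Tissue-Input either, so it was tested only because a sorted group passed. Its call was thus not independent of the side where it was high, and that of Kcna7 may not be. Kcnk6 had 70.7, 106, 86.7 and 77.4 CPM in Cell-Input, and its lowest, median and highest levels in the 16 sorted Input libraries were 357, 528 and 646 CPM. Kcnd1 had 9, 8.34, 9.71 and 6.31 CPM in Cell-Input and 9.72, 51.3 and 60.1 (lowest, median, highest) after sorting. Both genes were higher in every sorted library than in any Cell library, though for Kcnd1 autoMACS-Input replicate 3, at 9.72 CPM, was so only just (log2 fold changes 2.40 and 2.29, adjusted p = 1.72e-11 and 1.47e-08). Without that library the value for Kcnd1 was 2.36. Cacna1f had 0.22, 0.16, 0.089 and 0 CPM in Cell-Input and 0, 0.52 and 0.98 after sorting, with overlap (log2 fold change 1.95, adjusted p = 0.00663, and 1.29, not called, for Tyto alone). Kcnk13 had 36.5, 41.3, 38.8 and 31.1 CPM before and 77.2, 101 and 127 after sorting (1.25), and Kcnj2 17.8, 19.8, 23.5 and 16.9 and 40.3, 64.3 and 120.4 (1.46), both without overlap. The Kv1 pore Kcna7, Kcnk12 and Cacna1d had log2 fold changes of 1.80, 1.75 and 1.29, and Cacna1d was 0.95, under 2-fold, for autoMACS alone.

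The SK channel Kcnn2 had 45.1, 67.9, 58.5 and 57 CPM in Cell-Input and 0, 0.029 and 0.57 (lowest, median, highest) after sorting, with 8 of 16 libraries at 0 (log2 fold change -9.14, adjusted p = 2.04e-19). The GIRK subunit Kcnj3 had 6.94, 4.86, 4.29 and 4.42 CPM before sorting and a mean of 0.017 after, 13 of 16 libraries being at 0 (adjusted p = 2e-13). The silent subunit Kcng4 had 13.1, 18.1, 17.8 and 26.5 CPM before and a mean of 0.21 after, with 8 of 16 at 0 (adjusted p = 2.08e-14). For none of these 3 did a sorted library reach a Cell library. Kcnj10 had 616, 732, 737 and 881 CPM before and 16.3, 21.6 and 45.6 after sorting, so that it fell but was detected in each sorted library (log2 fold change -5.18). Kcnj16 went to 0.95, 2.35 and 4.77 CPM (-5.30), Kcnj13 to 0, 0.93 and 3.58 (-6.14, and -7.24 without FACSAria-Input replicate 4) and Kcne2 to 0, 0.41 and 4.08 (-5.72, and -6.66 without the same library). Kcnn4, at 3.22, 1.23, 4.52 and 4.07 CPM before and 2.47, 4.23 and 7.83 after, and Kcna3, at 2.5, 1.98, 1.57 and 1.44 and 0.14, 3.79 and 6.94, overlapped and were not called (0.23 and 0.51), though Kcna3 passed for FACSAria alone (1.21).

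In all 8 of 101 members were higher in Sorted-Input, beside 17.1% of all genes, and 83 were lower, beside 34.7%. For 16 of the called members a sort method had no count in any of its libraries, so the further members below are given as log2 ratios of mean CPM, whose median over members was -4.28, beside a median of -0.09 for the fitted changes of all genes (-0.30 with DESeq2's size factors, 0.14 in one fit). Such ratios were Kcna6 at -6.91, Kcna1 at -7.15, Kcnk1 at -7.06, Kcnj4 at -6.92, Kcnd2 at -7.33, Kcne1l at -6.49 and Kcnf1 at -6.25. The sizes above are fitted changes, of members with counts in all 4 methods, and as ratios of means some were Kcnn2 at -8.61, Kcnj13 at -5.10, Kcne2 at -5.15, Kcnj10 at -4.91 and Kcnk6 at 2.63. For Kcng4 a sort method was at 0 with all libraries, and for Kcnn2, Kcna6 and Kcne1l leaving out 1 library put a sort method at 0. None of these refitted sizes is given, and the calls held. Lower were 7 of 7 sodium channel alpha subunits, 5 of 5 Kv7 pores, 12 of 13 potassium channel auxiliary subunits and 13 of 16 Kv1 to Kv4 pores. Of 101 members 61, beside 11.5% of all genes, were lower in Cell-Input than in Tissue-Input and lower again in Sorted-Input than in Cell-Input, 11 were higher and then lower, beside 11.6%, and 5 higher in both, beside 9.15%. These comparisons share the Cell-Input libraries. Neuron marker sums went from 822 to 25.1 CPM, astrocyte from 7964 to 244, and microglia from 5612 to 39707, and no marker of these lists was at 0. Median fitted log2 fold changes were -5.37 over neuron, -7.25 over astrocyte and 2.62 over microglia markers. The astrocyte sum fell by less than that median.

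**Figure D2:**
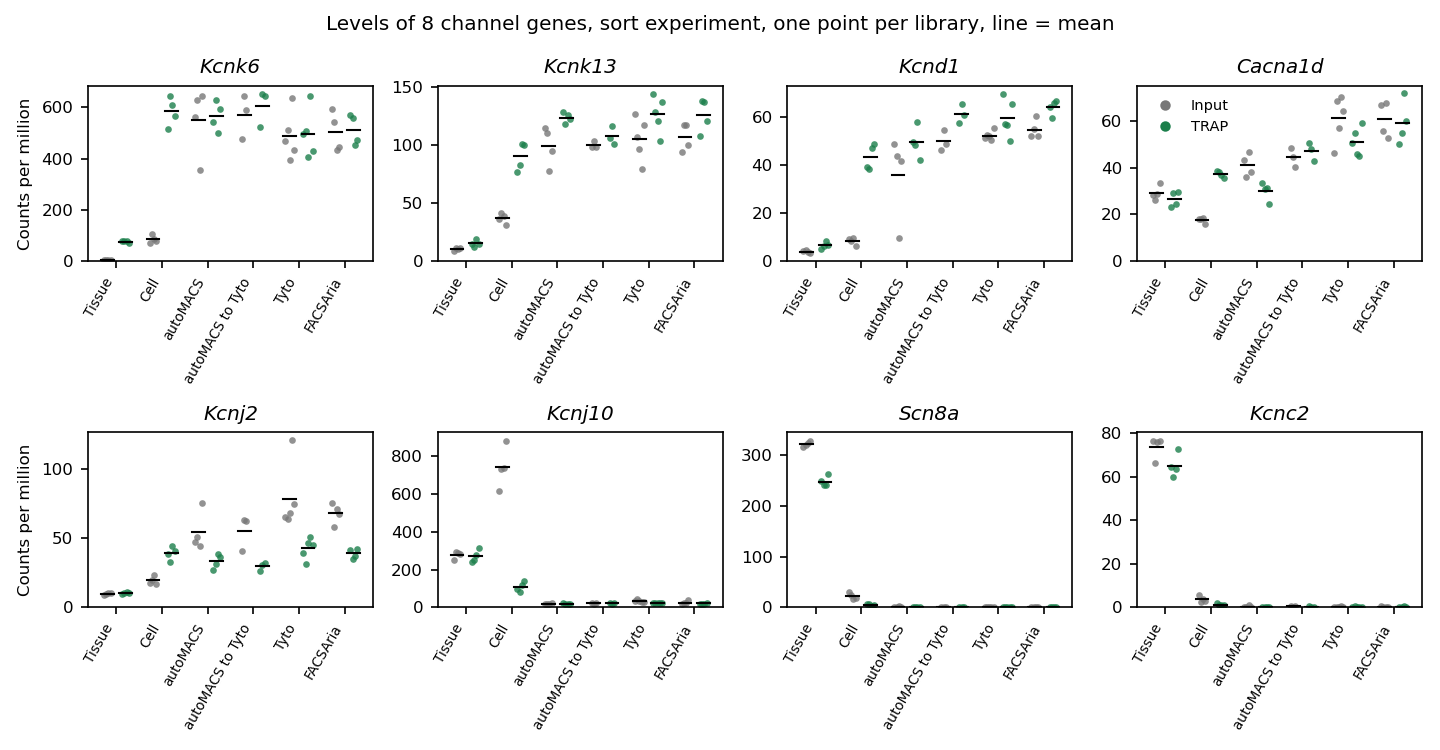
Levels (CPM) of 8 channel genes in each library (points, Input and TRAP by colour) of the sorting experiment, by preparation, with the group mean as a line. Kcnk6 and Kcnk13 are lowest in Tissue-Input and high in sorted libraries and in unsorted Cell-TRAP, while Kcnj10 peaks in Cell-Input, at 616 to 881 CPM.

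The sequence before the start of the 8 members higher in Sorted-Input was looked up in RefSeq promoters of GRCm38.p6, and 6 of the 8 were matched (Cacna1d, Cacna1f, Kcna7, Kcnj2, Kcnk12 and Kcnk13), Kcnk6 and Kcnd1 being named only. The motif searched was GAGGAA, a core letter string of PU.1 and other ETS factors, PU.1 being the factor that macrophage lineages depend on, on both strands (reverse complement TTCCTC) in the 250 bases before the start. It was present in 3 of the 6 genes, Kcnj2, Kcnk12 and Kcnk13, and in 23.3% of the 32851 mouse promoters of that length. The first count is by gene and the second by promoter, and Cacna1d had 2 promoters, neither with the motif. The 3 are printed 5′ to 3′ on the gene's strand because they carry the motif, in capitals. A match is a description, not a site. They are Kcnk13 at chr12:99964249-99964498 (+), Kcnj2 at chr11:111065914-111066163 (+) and Kcnk12 at chr17:87797995-87798244 (-).
Kcnk13: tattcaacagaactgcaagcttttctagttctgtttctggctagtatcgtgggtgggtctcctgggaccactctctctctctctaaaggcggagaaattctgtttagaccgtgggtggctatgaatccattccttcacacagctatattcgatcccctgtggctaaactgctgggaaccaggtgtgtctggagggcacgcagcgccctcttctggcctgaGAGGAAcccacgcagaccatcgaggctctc
Kcnj2: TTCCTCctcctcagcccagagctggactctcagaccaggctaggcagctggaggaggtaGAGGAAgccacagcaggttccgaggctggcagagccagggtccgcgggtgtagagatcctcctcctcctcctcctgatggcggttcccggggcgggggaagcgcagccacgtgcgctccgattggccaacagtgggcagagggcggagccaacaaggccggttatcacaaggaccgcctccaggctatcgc
Kcnk12: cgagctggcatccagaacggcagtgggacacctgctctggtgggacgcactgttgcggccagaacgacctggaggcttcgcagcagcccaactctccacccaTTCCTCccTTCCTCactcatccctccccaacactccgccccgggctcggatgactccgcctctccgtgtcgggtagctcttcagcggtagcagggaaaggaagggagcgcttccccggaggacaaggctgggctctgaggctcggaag

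In TRAP, most channels were lower after sorting, and those of microglia were not called higher. Kcnk6 had 516, 646, 609 and 567 CPM in Cell-TRAP and 406, 533 and 651 (lowest, median, highest) in the 16 sorted TRAP libraries, with overlap and no call (-0.13). Kcnk13 had 76.6, 83, 100.5 and 100.3 and 101, 121 and 144 CPM, each sorted library above the Cell libraries but short of a 2-fold change (0.39). Kcnj2 had 38.8, 32.6, 44.2 and 40.6 and 26.3, 36.9 and 51 CPM, with overlap (-0.15). The 2 members called higher were rare, and neither reached the count filter in Cell-TRAP. Kcna7 had 0.29, 0.16, 0.36 and 0.25 CPM in Cell-TRAP and 0.34, 0.81 and 1.85 after sorting (log2 fold change 1.46, adjusted p = 0.0274, and 0.89, not called, for autoMACS to Tyto alone). Kcnh4, an ELK pore, had 0.15, 0.16, 0.59 and 0.5 CPM and 0.24, 0.94 and 1.71 (log2 fold change 1.16, adjusted p = 0.0214). Both had overlapping groups. The call of Kcnh4 ended for autoMACS alone (0.32) and without Cell-TRAP replicate 1 (0.94) or 2 (0.96) or autoMACS-TRAP replicate 3 (1.00).

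Kcnn2 had 8.16, 9.37, 8.65 and 10.1 CPM in Cell-TRAP and a mean of 0.026 after sorting, 14 of 16 libraries being at 0 (adjusted p = 5.37e-14). Kcnk1 had 30.5, 27.8, 26.5 and 29.3 CPM before and 0, 0.03 and 0.41 after (log2 fold change -7.98, adjusted p = 5.61e-19). The Kv4 pore Kcnd2 had 9.49, 6.74, 5.45 and 6.5 CPM before and a mean of 0.066 after, with 12 of 16 at 0 (adjusted p = 3.52e-13). All 3 lay below every Cell-TRAP library in each sorted library. Kcnj10 went from 98.6, 82.8, 117 and 139.6 to 16.9, 21.4 and 25.5 CPM (-2.39) and Kcnj16 from 14.3, 15.5, 18.5 and 24.8 to 1.4, 2.2 and 3.54 (-3.01). Kcnj13 and Kcne2 also fell, with 6 and 9 of 16 sorted libraries at 0 (log2 ratios of means -3.91 and -3.44). A sort method was at 0 for Kcnn2, Kcnd2 and Kcne2, and in a refit without 1 library for Kcnj13 and Kcnk1, so no fitted size is given there, and the calls held. Kcnn4, at 3.01, 3.71 and 6.06 CPM, and Kcna3, at 0.06, 2.02 and 4.21, were not called (0.30 and 0.02), and Kcna3 was lower for autoMACS alone (-1.23, adjusted p = 0.0811).

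Of 99 members 2 were higher, beside 0.836% of all genes, and 73 were lower, beside 23.6%. A sort method was at 0 for 35 of the called members, and the median log2 ratio of means was -3.44, beside a fitted median of -0.05 over all genes. Log2 ratios of means, resting on 7 to 31 counts in the 16 sorted libraries, were Kcng4 at -6.85, Kcnt1 at -6.89, Kcnc1 at -5.89, Scn1a at -6.32 and Kcna6 at -5.99. Without Cell-TRAP replicate 2 the fitted change of Kcnt1, -6.86, was -5.99. The EAG-class pore Kcnh6, at 0 in all 16 sorted libraries, was under the floor in Cell-TRAP too, so no fold is given. None of 10 microglia markers passed, with sums of 37074 and 47731 CPM, while 11 of 11 neuron markers were lower, their sum going from 223 to 6.7 CPM, as were 9 of 9 astrocyte and 6 of 7 ependyma and choroid plexus markers.

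The 4 sort methods were also set against each other. In Input 7 of 101 members differed, beside 7.42% of all genes. Kcna6 had 0.15, 0.23, 0.58 and 0 CPM in autoMACS, 0.53, 0 and 0 in autoMACS to Tyto, 2.19, 5.44, 2.48, 1.28 and 0.54 in Tyto and 0.51, 1.61, 0.19 and 0.8 in FACSAria libraries (adjusted p = 0.00581). Kcna1 had 0.3, 0.76, 0.73 and 0.12, 0.11, 0.17 and 0.13, 1.39, 4.29, 1.2, 1.88 and 0.15 and 0.51, 0.3, 0.28 and 1.09 CPM in the same order (adjusted p = 0.0291). Kcnk1 had 0.3, 0.82, 0.87 and 0.37, 0.21, 0 and 0.52, 1.53, 4.86, 1.2, 2.28 and 0.77 and 0.76, 0.3, 0.75 and 4.57 CPM (adjusted p = 0.0464). All 3 were highest on average in Tyto, with Tyto replicate 2 above the rest, and the ranges of the methods overlapped in part. Markers of other cells differed between methods too, 6 of 8 of oligodendrocytes, 6 of 7 of endothelium and 5 of 9 of astrocytes, and oligodendrocyte sums were 249, 215, 485 and 277 CPM in the same order (822 in Tyto replicate 2) and astrocyte sums 209.5, 208, 314 and 218. Their part in the channel differences was not tested. The largest log2 difference between any 2 methods was 3.61, 3.50 and 3.2 for Kcna6, Kcna1 and Kcnk1, and Kcnn2 at 2.61, Kcna3 at 2.14 and Kcnj16 at 1.36. Kcna3 had 1.59, 1.41, 0.14 and 1.22 CPM in autoMACS, 3.82, 3.76 and 4.04 in autoMACS to Tyto, 1.46, 6.39, 2.4, 4.97 and 5.78 in Tyto and 5.18, 4.92, 6.94 and 2.98 in FACSAria libraries, with autoMACS lowest. Kcnj16 had 1.97, 1.59, 1.74 and 2.94, 0.95, 2.39 and 1.17, 2.79, 4.77, 1.2, 1.48 and 2.31 and 3.54, 4.32, 3.94 and 4.57 CPM, FACSAria being highest on average. Among microglia channels Kcnk6 and Kcnk13 were not called, with largest log2 differences of 0.26 and 0.14.

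In TRAP 3 of 99 members differed between sort methods, beside 4.17% of all genes. Kcnip4 had 0.12, 0, 0 and 0.054 CPM in autoMACS, 0, 0.07 and 0.2 in autoMACS to Tyto, 0.057, 0.31, 0.13, 0.14 and 0.24 in Tyto and 0.17, 0.61, 0.14 and 0.41 in FACSAria libraries (adjusted p = 0.0228, largest log2 difference 2.74, or 3.66 without autoMACS-TRAP replicate 1). Kcna3 had 1.26, 0.06, 1.62 and 0.11, 2.09, 2.86 and 3.25, 0.69, 2.7, 1.34, 1.71 and 1.95 and 4.21, 3.43, 2.44 and 2.74 CPM (adjusted p = 0.0372, 2.06, or 2.74 without autoMACS-TRAP replicate 3). Kcnh4 had 0.36, 0.24, 0.99 and 0.27, 0.74, 1.19 and 0.49, 1.31, 1, 0.67, 0.89 and 0.67 and 1.49, 1.08, 1.53 and 1.71 CPM (adjusted p = 0.0616, 1.62). For all 3 autoMACS was lowest and FACSAria highest on average. Markers differed between methods too, 3 of 6 of border macrophages, 3 of 7 of endothelium and 3 of 8 of oligodendrocytes. So did 2 of 5 of mural cells and 2 of 3 of blood cells, but none of 10 microglia or 11 neuron markers. Their part in the channel differences was not tested. DESeq2 called 20 members in Input, beside 12.2% of all genes, and 18 in TRAP, beside 7.68%, and one fit called 15, beside 10.7%, and 3, beside 3.39%. In Input the call of Kcnk1 ended without autoMACS to Tyto replicate 2 (2.48; 4.27 without replicate 3, still called), and that of Kcnn2 without any 1 of 10 libraries: FACSAria replicates 1, 2 and 3 (2.33 each), Tyto replicates 1 (2.57), 2 (2.45), 4 (2.50) and 5 (2.58), and autoMACS replicates 2, 3 and 4 (2.61 each). Without FACSAria replicate 4 for Kcnn2, or autoMACS to Tyto replicate 1 for Kcna6, a method is at 0 and no size is given. Kcnj13 and Kcne2 passed in Input without FACSAria replicate 4 (4.99 and 4.29). In TRAP the call of Kcnh4 ended without FACSAria replicate 3 (1.59) or 4 (1.53) or autoMACS replicate 1 (1.52), 2 (1.41) or 4 (1.43), and its value was 2.28 without autoMACS replicate 3. Sort methods shared mice in part: FACSAria and Tyto had 3 mice in common, with opposite hemispheres used, and autoMACS and autoMACS to Tyto had 3 mice in common.

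The preparation experiment repeated the step from tissue to enzymatic suspension, with Cell(-) suspensions from mice other than those of the sorting experiment and Tissue from the same mice, so the Tissue side is no independent repeat. Kcnk6 had 5.8, 7.07, 3.92 and 4.1 CPM in Tissue-Input and 103, 153, 69.8 and 136 in Cell(-)-Input (log2 fold change 4.33, adjusted p = 2.99e-11), Kcne2 4.87, 9.53, 6.96 and 5.57 and 54, 101, 117 and 69.3 (log2 fold change 3.53, adjusted p = 4.28e-07) and Kcnk5 0.94, 0.9, 1.77 and 2.31 and 15.7, 14.1, 25 and 18.6 (log2 fold change 3.48, adjusted p = 3.16e-08). None of the 3 overlapped. Scn4b had 242, 248, 248 and 216 CPM in Tissue-Input and 7.43, 3.61, 8.11 and 7.01 in Cell(-)-Input (log2 fold change -5.33, adjusted p = 4.17e-10) and Kcnv1 35.4, 32.9, 35.5 and 43.3 and 1.4, 0.5, 0.69 and 1.56 (log2 fold change -5.26, adjusted p = 1.39e-11). Each of these fell in all 4 Cell(-) libraries to less than any Tissue library. Kcnj10 had 371, 404, 396 and 400.5 and 1345, 1064, 877 and 828 CPM (1.25), Kcnj16 45.1, 50.8, 36.5 and 37.2 and 145, 149.8, 88.9 and 76.6 (1.30) and Kcnj13 5.05, 5.05, 7.16 and 2.94 and 30.3, 52.8, 71.6 and 46.7 (3.17). All 3 rose without overlap, as did Kcnn4 at 3.15, Kcne4 at 3.06, Kcnmb1 at 2.40, Kcnq1 at 2.13 and Kcnk13 at 1.91 (log2 fold changes). Further falls were Scn1a at -4.81, Scn8a at -4.61, Kcng1 at -4.52, Kcnq5 at -4.48, Kcnc2 at -4.28 and Kcnj9 at -4.17. In all 14 of 98 members were higher, beside 25.6% of all genes, and 67 were lower, beside 19.1%, with medians of -2.53 and, over all genes, 0.05. Neuron marker sums were 9818 CPM in Tissue-Input and 739 in Cell(-)-Input (11 of 11 lower), those of microglia 347 and 8662 (10 of 10 higher), of endothelium 70.7 and 1594 (7 of 7 higher) and of ependyma and choroid plexus 1262 and 9511 (8 of 8 higher).

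In TRAP of these preparations Kcnk6 had 86.1, 100.4, 89.6 and 77.8 CPM in Tissue-TRAP and 526, 593, 472 and 551 in Cell(-)-TRAP (log2 fold change 2.65, adjusted p = 4.65e-13), Kcnk13 22.1, 16.6, 19.3 and 19.2 and 101, 111, 102 and 98 (log2 fold change 2.46, adjusted p = 4.57e-12) and Kcnd1 7.96, 6.64, 10.8 and 13.3 and 50, 52.5, 52.7 and 35.7 (log2 fold change 2.35, adjusted p = 1.93e-07). Every Cell(-)-TRAP library was above every Tissue-TRAP library for all 3. Scn4b had 158, 150.1, 185 and 168 and 0.97, 0.75, 0.7 and 0.61 CPM, 206-fold lower (log2 fold change -7.68, adjusted p = 1.84e-14), and Kcnv1 19.9, 16.4, 20.4 and 31.6 and 0.15, 0, 0.26 and 0 (log2 fold change -7.51, adjusted p = 3.6e-09). These fell without overlap. The EAG-class pore Kcnh6 was at 0 in Cell(-)-TRAP and at least 9.43-fold lower. In all 8 of 99 members were higher, beside 22.3% of all genes, and 82 were lower, beside 30.8%, with medians of -4.23 (-4.22 with Kcnh6 at its bound) and, over all genes, -0.13. Neuron marker sums were 9006 CPM in Tissue-TRAP and 142 in Cell(-)-TRAP (11 of 11 lower), and 5 of 9 astrocyte markers were lower. Microglia sums were 8328 and 43486 CPM (10 of 10 higher) and those of endothelium 217 and 814 (7 of 7 higher). Border macrophage sums were 207 and 1112 CPM (5 of 6 higher), and 3 of 3 blood cell markers tested were higher. Kcnn4, Kcnk5 and Kcnj2 also rose (1.78, 1.72 and 1.33). The calls of Cacna1f (1.42) and Kcne4 (1.16) were weak, that of Cacna1f ending without Cell(-)-TRAP replicate 3 (1.24) or Tissue-TRAP replicate 1 (1.10) or in one fit (1.38), and that of Kcne4 without any of the 8 libraries: Cell(-)-TRAP replicate 1 (1.15), 2 (1.17), 3 (1.18) or 4 (1.11), or Tissue-TRAP replicate 1 or 2 (1.16 each), 3 (1.09) or 4 (1.23). Further falls were Kcnh5 (a count in Cell(-)-TRAP replicate 2 alone, so no size is given), Kcnip4 at -7.22 (-7.99 without Cell(-)-TRAP replicate 1), Kcng1 at -6.30 (-7.60 without replicate 1) and Kcnq5 at -6.83, Kcnab1 at -6.54 and Kcnc1 at -6.17, and Kcnv1 was -8.31 without Cell(-)-TRAP replicate 3.

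Transcription and translation inhibitors, added to stop changes that arise while cells are prepared, gave no call among channel genes in the unpaired edgeR fit. It called 0 of 98 members in Input, higher or lower, beside 0% and 0.311% of all genes, and 0 of 99 in TRAP, beside 0.00679% and 0.632%. At an unadjusted p under 0.05 there were 4 members in Input (Kcnb2, Scn4b and Kcnk12 among them), beside 3.37% of all genes, and 4 in TRAP (Kcnt1, Kcnj5 and Kcnj2 among them), beside 8.91%. Both suspensions came from the same 4 mice, and residuals correlated at 0.055 to 0.345 within a mouse and at -0.308 to 0.09 between mice in TRAP. With the mouse as a block 8 of 68 members tested in TRAP had an unadjusted p under 0.05, beside 25.9% of all genes, 5 an adjusted p under 0.1, beside 17.8%, and 1 was called, lower, beside 1.12%, while in Input 0 of 83 had an adjusted p under 0.1, beside 0.426%. DESeq2 called 1 member in each fraction, beside 0.375% of all genes in Input and 0.679% in TRAP. Chosen after its values were seen, Kcnt1 had 7.35, 3.16, 8.26 and 3.13 CPM in Cell(-)-TRAP and 2.21, 2.21, 4.06 and 1.36 in Cell(+)-TRAP, which DESeq2 gave a log2 fold change of -1.15. Kcnk6 had 117, 101, 95.9 and 161 CPM in Cell(+)-Input and 558, 546, 494 and 578 in Cell(+)-TRAP, Kcnk13 64, 52, 52.6 and 61.5 and 104, 99.8, 102 and 95.8, and Kcnj2 28, 26.4, 27.5 and 31.6 and 26.6, 25.6, 24.9 and 24.3. These ranges overlapped those of the suspension without inhibitors, except that Kcnj2 in TRAP, with 38.2, 30.5, 34.3 and 38.7 CPM without inhibitors, was lower with them in every library (log2 fold change -0.48, adjusted p = 0.265; with the mouse as a block -0.46, adjusted p = 0.00633, short of a 2-fold change). Kcnj10 had 888, 956, 1163 and 960.3 and 114, 103, 146 and 112 CPM with inhibitors, Kcnj16 86.7, 130.4, 117 and 91.5 and 14.3, 15.6, 16.2 and 13.7, and Kcnn4 8.82, 5.95, 4.42 and 6.72 and 2.66, 4.52, 5.7 and 5.06. None was called.

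The cold Dounce suspension was compared with tissue and with the enzymatic suspension. The paper reports RNA integrity lowest in Dounce-Input, and coverage along transcripts more biased in Tissue and Dounce than in Cell libraries. Neither was analysed here, and their part in the channel differences was not tested. Kcnj15, an inward rectifier listed in this experiment alone, had 1.5, 1.35, 0.78 and 2 CPM in Tissue-Input and 8.5, 7.05, 10.8 and 13 in Dounce-Input (log2 fold change 3.00, adjusted p = 4.19e-07). Kcnk6 had 31.9, 29.5, 27.8 and 42.4 CPM in Dounce-Input (log2 fold change 2.86, adjusted p = 9.55e-09), above all Tissue-Input libraries and below all Cell(-)-Input libraries. The sodium channel Scn3a, known from developing brain, had 22.5, 25.6, 18.4 and 23.5 CPM in Tissue-Input and 91.9, 109.6, 71.5 and 89.7 in Dounce-Input (log2 fold change 2.22, adjusted p = 6.37e-09). None of the 3 overlapped with Tissue. The K2P channel Kcnk9 (TASK-3) had 4.02, 2.36, 4.02 and 2.21 and 0.41, 0, 0 and 0 CPM (log2 fold change -4.31, adjusted p = 0.000186), all Dounce libraries but replicate 1 being at 0, so the fitted size is no bound. The silent subunits Kcng4, with 60.3, 55.6, 66.6 and 51.9 and 7.68, 8.04, 5.47 and 3.58 CPM (log2 fold change -2.99, adjusted p = 9.86e-10), and Kcng1, with 10, 8.75, 9.42 and 16.6 and 0.99, 2.16, 0.62 and 1.24 (log2 fold change -2.89, adjusted p = 4.56e-06), fell without overlap.

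By role, 4 of 7 sodium channel alpha subunits and 3 of 9 calcium channel alpha1 subunits were higher in Dounce-Input than in Tissue-Input and none lower, while 6 of 7 silent Kv subunits, 3 of 4 sodium channel beta subunits and 9 of 13 potassium channel auxiliary subunits were lower. Over members 16 of 98 were higher, beside 28.7% of all genes, and 26 were lower, beside 21.4%, with medians of -0.18 and, over all genes, 0.10 (-0.10 in one fit). Further rises, as log2 fold changes, were Kcnt1 at 2.06, Cacna1d at 2.03, Kcnmb1 at 1.91, Scn2a1 at 1.46, Kcnj2 at 1.45 and Kcnk10 at 1.43 and Kcnrg at 2.18 (2.91 without Tissue-Input replicate 3). Further falls were Kcne2 at -2.51, Kcnj13 at -2.24, Scn4b at -2.21, Kcnab2 at -2.04, Kcna5 at -1.99, Kcnip1 at -1.81 and Kcnmb4 at -1.68. Kcnj2 had 17.1, 13.8, 12.9 and 12.2 CPM in Tissue-Input and 23.3, 28.8, 40.1 and 41.6 in Dounce-Input, without overlap. Kcnk13, with 15.3, 13.9, 13 and 10.1 and 19.9, 18.4, 16.2 and 16.3 CPM (0.65), Kcnj10, with 379, 317, 149 and 301 CPM in Dounce-Input (-0.24), and Kcnj16, with 56.2, 42.8, 29.1 and 50.2 (0.29), were not called. Kcnn4 was 0.47, 0.9, 0.2 and 1.26 and 1.65, 0.33, 2.19 and 1.1 CPM, with overlap, and was called (log2 fold change 1.06, adjusted p = 0.0843), but not with DESeq2's size factors (1.01), in one fit (0.86), or without Dounce-Input replicate 1 (0.86) or 3 (0.76) or Tissue-Input replicate 1 (0.91) or 3 (0.75). Kcna3 was 1.68, 1.35, 1.67 and 2.21 and 0, 0.33, 0.31 and 1.52 CPM and was called lower (log2 fold change -1.60, adjusted p = 0.0368), with -1.10 and no call without Dounce-Input replicate 1 and -2.84 without replicate 4. Neuron marker sums were 9818 CPM in Tissue-Input and 3283 in Dounce-Input (8 of 11 lower), and those of ependyma and choroid plexus 1262 and 124 (8 of 8 lower). Microglia sums were 347 and 2209 CPM (10 of 10 higher), border macrophage sums 12 and 68.8 (6 of 6 higher) and blood cell sums 175 and 10001 (6 of 6 higher).

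Against the enzymatic suspension Dounce-Input held far more sodium channel RNA. Scn1a had 4.96, 3.01, 2.08 and 9.16 CPM in Cell(-)-Input and 258, 293, 240.2 and 278 in Dounce-Input, a 69.7-fold rise (log2 fold change 6.12, SE 0.30, adjusted p = 1.08e-12). Scn2a1 had 19.5, 11.6, 15.6 and 21.2 and 570.2, 537, 638 and 690.1 CPM (log2 fold change 5.51, adjusted p = 1.38e-12), and Scn3a 2.48, 1.51, 3.13 and 3.9 in Cell(-)-Input (log2 fold change 5.39, adjusted p = 4.96e-13). These 3 had no overlap between the suspensions. Kcne2 had 54, 101, 117 and 69.3 CPM in Cell(-)-Input and 0.66, 1.33, 1.56 and 0.55 in Dounce-Input (log2 fold change -6.04, adjusted p = 5.95e-09), Kcnj13 30.3, 52.8, 71.6 and 46.7 and 0.83, 0.33, 1.87 and 1.1 (log2 fold change -5.40, adjusted p = 1.34e-08), and Kcne4, an auxiliary subunit of Kv channels, 11.9, 16.1, 21 and 28 and 0.66, 0.99, 0.62 and 0.83 (log2 fold change -4.24, adjusted p = 3.12e-09). All 3 were lower in each Dounce library. In all 67 of 98 members were higher, beside 28.8% of all genes, and 16 were lower, beside 28.1%, with medians of 2.03 and, over all genes, -0.06 (-0.41 in one fit). Higher were 6 of 7 sodium channel alpha subunits, 4 of 4 beta subunits, 8 of 9 calcium channel alpha1 subunits, 6 of 7 EAG, ERG and ELK pores and 10 of 15 Kv1 to Kv4 pores, and 8 of 9 glia-linked members were lower.

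Other rises in that comparison, as log2 fold changes, were Scn8a at 5.32, Kcnt1 at 5.00, Scn9a at 4.79, Kcnq5 at 4.69 and Cacna1a at 4.40. Other falls were Kcnk5 at -3.09, Kcnn4 at -2.08, Kcne1l at -2.05, Kcnn3 at -1.78 and Kcnj10 at -1.49, with Kcnq1 at -3.10 (-5.39 without Dounce-Input replicate 1) and the Cav1.1 subunit Cacna1s at -2.18 (-3.29 without Dounce-Input replicate 3). Kcnj16 (-1.01) passed by little, and fell short without Cell(-)-Input replicate 1 (-0.87) or 2 (-0.86) or Dounce-Input replicate 2 (-0.98) or 3 (-0.86), and with a filter of 10 counts (-0.98). Kcna3 (-1.44) lost its call without Cell(-)-Input replicate 4 (-1.03) or Dounce-Input replicate 1 (-0.94), 2 (-1.26) or 3 (-1.32), and was -2.69 without Dounce-Input replicate 4. Of the marker lists, 9 of 11 neuron markers were higher (sums of 739 and 3283 CPM), 8 of 10 microglia markers were lower (8662 and 2209), as were 9 of 9 astrocyte markers (9464 and 2192) and 7 of 7 endothelium markers (1594 and 29.1), and 8 of 8 ependyma and choroid plexus markers were lower (9511 and 124). No marker of these lists was at 0, and their part in the channel differences was not tested.

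In TRAP 4 of 9 glia-linked members were higher in the Dounce suspension than in Tissue, beside 23.2% of all genes. Lower were 2, beside 27.1%. Kcnk6 had 559, 603, 439.6 and 534 CPM in Dounce-TRAP (log2 fold change 2.65, adjusted p = 9.19e-13 against Tissue-TRAP), Kcnk13 101, 93.5, 67.2 and 98.8 (log2 fold change 2.28, adjusted p = 2.94e-11) and Kcnj15 11.4, 10.3, 10.1 and 14.2 beside 1.41, 1.26, 0.99 and 0.78 in Tissue-TRAP (log2 fold change 3.42, adjusted p = 5.87e-07). All 3 lay above Tissue-TRAP in each library, and Kcnk6 and Kcnk13 overlapped with Cell(-)-TRAP (0.01 and -0.18, not called). Kcna5, a Kv1 pore, had 8.99, 9.61, 6.37 and 4.48 CPM in Tissue-TRAP and 0 in Dounce-TRAP, so it was at least 8.28-fold lower (adjusted p = 5.74e-06). Kcnh6, with 1.22, 2.29, 3.07 and 2.83 CPM in Tissue-TRAP, was at least 2.64-fold lower, and Kcnk9, with 3, 2.06, 0.66 and 1.85, at least 2.13-fold (adjusted p = 0.000751 and 0.00112). With the low depth of Dounce-TRAP the mean floor of a zero was 0.89 CPM, and Kcnq1 was at least 1.14-fold lower, while Kcnk5 was under that floor in Tissue-TRAP and gets no fold.

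Of 99 members 8 were higher in Dounce-TRAP than in Tissue-TRAP, beside 23.2% of all genes, and 57 were lower, beside 27.1%, with medians of -1.51 (-1.40 with the 5 members at 0 set to their bounds) and, over all genes, -0.06. None of 7 sodium channel alpha subunits passed, with a median log2 fold change of -0.31, while 4 of 4 beta subunits, 6 of 7 silent Kv subunits, 9 of 12 potassium channel auxiliary subunits and 11 of 15 Kv1 to Kv4 pores were lower. The other rises were Cacna1d at 1.85, Kcnj2 at 1.76, Kcnn4 at 1.69, Kcnd1 at 1.50 and Kcnt1 at 1.26 (log2 fold changes), with 11.8, 16.6, 17.7 and 12.4 CPM of Kcnj2 in Tissue-TRAP and 50.7, 60.2, 34.6 and 44.1 in Dounce-TRAP. Further falls were Kcnab1 at -4.30 and Scn4b at -3.95, and Kcng4 at -4.61 (-5.33 without Dounce-TRAP replicate 1). Kcnmb2, Kcnj13 and Kcne2 were called lower too, each with a count in 1 Dounce-TRAP library alone and a mean under the floor, so no fold is given. Kcnj10, with 318, 287, 337 and 452 CPM in Tissue-TRAP and 254, 174, 117 and 136 in Dounce-TRAP, just missed the 2-fold change (-0.97), and passed it with DESeq2's size factors (-1.04), with no filter (-1.05), in one fit (-1.03) and without Dounce-TRAP replicate 1 (-1.27) or Tissue-TRAP replicate 1 (-1.02) or 2 (-1.06). Kcnj16, with 34.7, 31.8, 34.5 and 47 and 37.6, 48.6, 57.1 and 34.3 CPM, overlapped (0.32). Neuron marker sums were 9006 CPM in Tissue-TRAP and 1442 in Dounce-TRAP (11 of 11 lower), and microglia sums 8328 and 40537 (10 of 10 higher). Lower were also 8 of 8 ependyma and choroid plexus markers (284 and 32.5), 7 of 9 of astrocytes and 6 of 7 of endothelium. Higher were 5 of 6 border macrophage markers (207 and 1244), 3 of 3 blood cell markers tested and 4 of 8 oligodendrocyte markers.

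Compared with Cell(-)-TRAP, most channel genes were higher in Dounce-TRAP. Scn2a1 had 5.2, 1.83, 2.2 and 2.96 CPM in Cell(-)-TRAP and 148, 193, 272 and 137 in Dounce-TRAP, a 60.8-fold rise (log2 fold change 5.93, SE 0.36, adjusted p = 4.58e-10), and Scn8a 5.42, 3, 4.66 and 2.7 and 183, 214, 286 and 233 (log2 fold change 5.85, adjusted p = 1.19e-11). The groups of both were far apart. Kcnk5 had 1.78, 1.66, 1.93 and 2 CPM in Cell(-)-TRAP and 0 in Dounce-TRAP, at least 2.07-fold lower (adjusted p = 0.000116), and Kcna5 2.23, 1.16, 0.7 and 0.35 and 0, at least 1.25-fold (adjusted p = 0.00217). Kcnq1, with 1.56, 0.83, 0.53 and 0.52 CPM, was called lower with a mean under the floor, so no fold is given. In all 67 of 99 members were higher, beside 20.7% of all genes, and 7 were lower, beside 8.02%, with medians of 2.38, also with the 4 members at 0 set to their bounds, and, over all genes, -0.01. Higher were 6 of 7 sodium channel alpha subunits, 8 of 10 calcium channel alpha1 subunits, 6 of 7 silent Kv subunits and 11 of 15 Kv1 to Kv4 pores.

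Further rises against Cell(-)-TRAP were Scn1a at 5.59, Kcnc1 at 5.35, Kcnt1 at 5.01, Kcnq5 at 4.98 and Scn3a at 4.73 (log2 fold changes) and Kcnv1 at 4.79 (5.59 without Cell(-)-TRAP replicate 3). Kcnj13 and Kcne2 were called lower, again with a count in 1 Dounce-TRAP library alone and a mean under the floor, so no fold is given. The other falls moved with single Dounce-TRAP libraries: Cacna1f at -2.15 (-3.03 without replicate 2) and Kcne4 at -1.61 (-3.55 without replicate 4, and no call without replicate 1, 2 or 3 at -1.19, -1.37 and -1.29 or without Cell(-)-TRAP replicate 4 at -1.57). Kcnj13 had 2.9, 1, 2.99 and 2.87 CPM in Cell(-)-TRAP and 0, 0, 0.39 and 0 in Dounce-TRAP, and Kcne2 3.41, 2.5, 2.81 and 2.09 and 0, 0.42, 0 and 0. Kcnj16, at 23, 13.1, 13.7 and 14.6 and 37.6, 48.6, 57.1 and 34.3 CPM, rose (1.46), while Kcnn4, at 5.05, 3.16, 4.66 and 4.53 and 5.3, 1.26, 5.44 and 4.63, and Kcna3, at 2.3, 1.33, 1.14 and 1.91 and 1.11, 1.89, 0 and 3.09, overlapped and were not called. Neuron markers were higher in Dounce-TRAP, 10 of 11, with sums of 142 and 1442 CPM, and none of 10 microglia markers passed (43486 and 40537). Lower were 8 of 8 ependyma and choroid plexus markers (419 and 32.5) and 7 of 7 endothelium markers (814 and 64.9), and 5 of 8 oligodendrocyte markers were higher (862 and 1750). Border macrophage sums were 1112 and 1244 CPM, with no marker called. Their part in the channel differences was not tested.

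**Figure D3:**
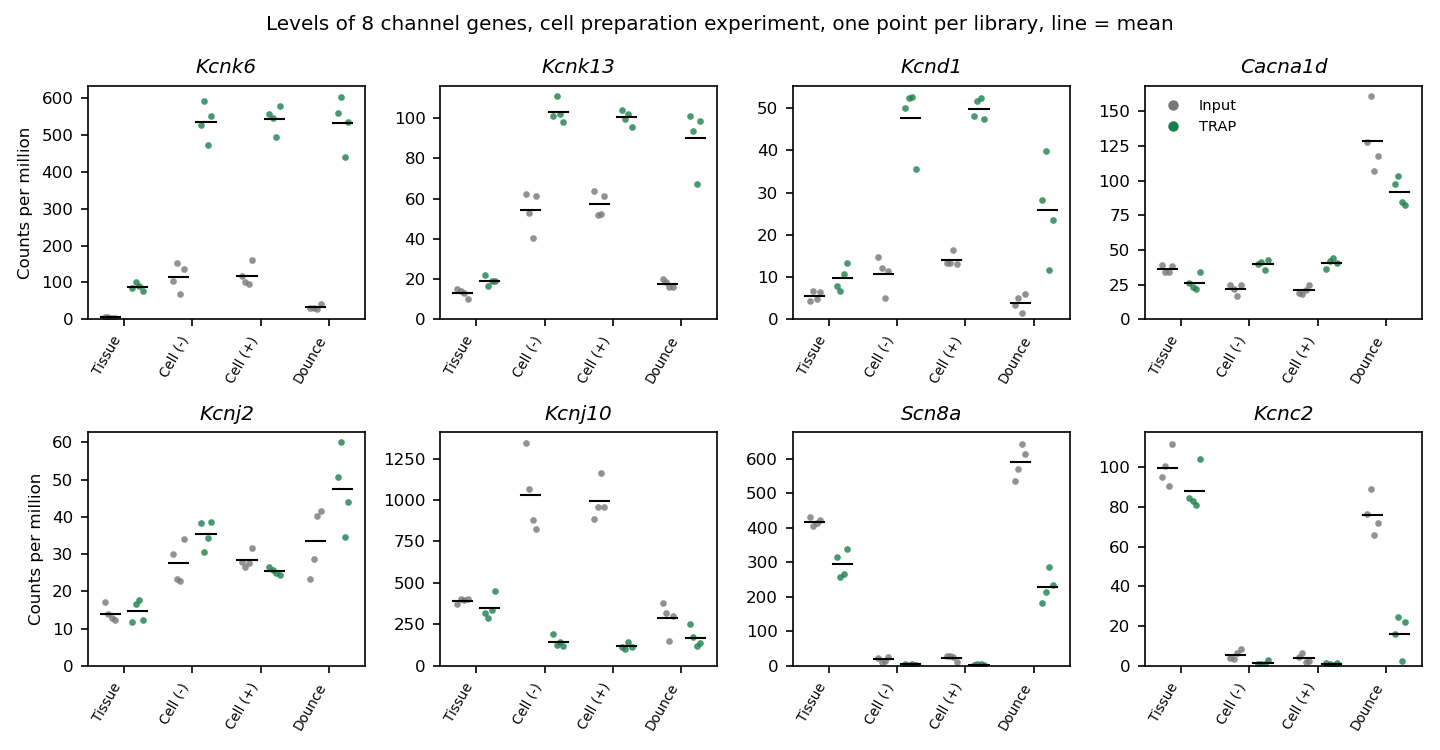
Levels (CPM) of 8 channel genes in each library (points, Input and TRAP by colour) of the preparation experiment, by preparation, with the group mean as a line. Kcnk6 is 439.6 to 603 CPM in Dounce-TRAP and 27.8 to 42.4 CPM in Dounce-Input, and Scn8a is 11.9 to 25.7 CPM in Cell(-)-Input and 2.70 to 5.42 CPM in Cell(-)-TRAP.

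**Figure D4:**
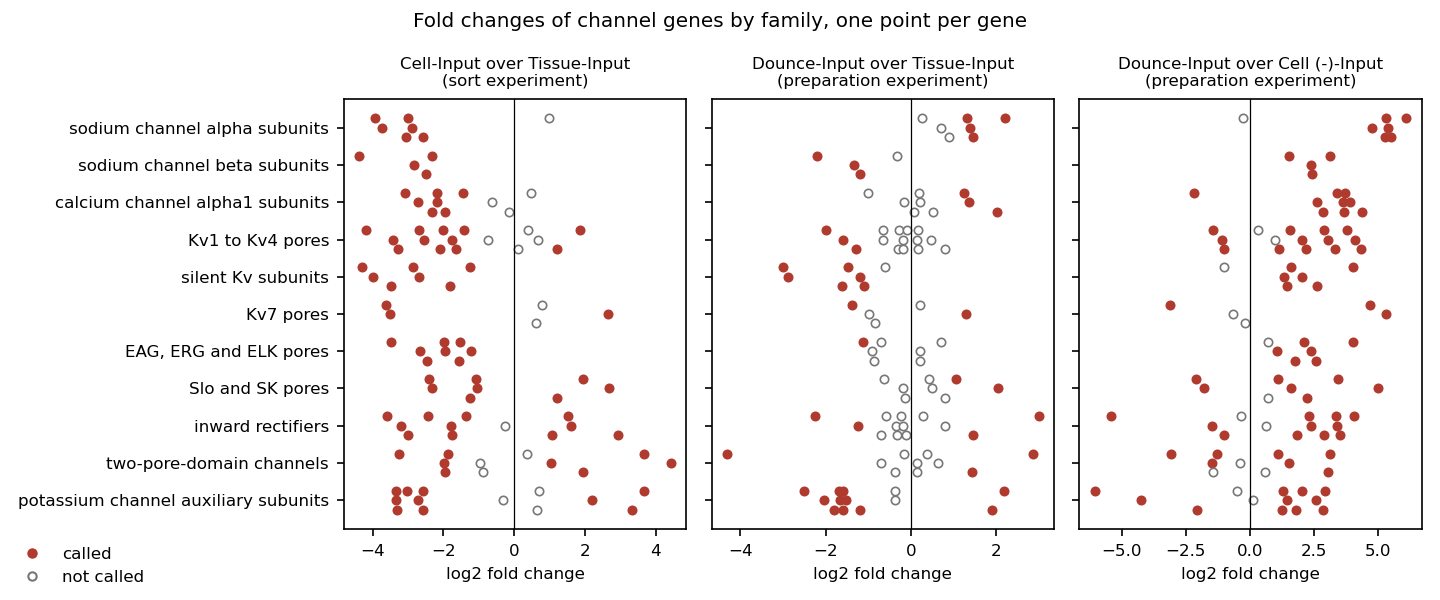
Log2 fold change of each channel gene (points, filled where called) by role in 3 comparisons of Input libraries. The median over sodium channel alpha subunits is -3.01 for Cell-Input over Tissue-Input and 1.31 for Dounce-Input over Tissue-Input.

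Remaining marker lists gave these summed levels. In the sorting experiment oligodendrocyte markers (8 of 8 listed, Mbp most abundant in tissue) had 3308 CPM in Tissue-Input, 809 in Tissue-TRAP and 224 in Sorted-TRAP. Oligodendrocyte precursor markers (5 of 5) had 79.2 CPM in Tissue-Input, 113 in Cell-Input and 3.45 in Sorted-Input. Endothelial markers (7 of 7) had 53.8, 1220.1 and 116 CPM in the same groups and were higher in Tissue-TRAP, at 163 CPM, 7 of 7 passing. Border macrophage markers (6 of 6, Mrc1 most abundant) had 9.07 CPM in Tissue-Input, 168 in Tissue-TRAP, 1252 in Cell-TRAP and 1166 in Sorted-TRAP. Blood cell markers (5 of 8 listed, Hba-a1 most abundant) had 123 CPM in Tissue-Input, 2450.2 in Cell-Input and 186 in Sorted-Input. In the preparation experiment blood cell markers reached 7665 CPM in Cell(-)-Input and 10001 in Dounce-Input, from 175 in Tissue-Input.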

How the data were processed

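For the 48 libraries of the sorting and 32 of the preparation experiment the values used were the expected counts deposited by the authors, who made them in Strand NGS against mm10, and they were rounded. The 80 normalized columns beside them and an earlier table of 24 libraries were not used here. In each experiment 23 genes are listed under spreadsheet dates. Input and TRAP libraries of an experiment were fitted apart, except where fractions are compared, in edgeR 4.0.16 under R 4.3.3 (TMM factors, quasi-likelihood F test, Benjamini-Hochberg over all genes tested). A gene was tested if over 5 counts were present in every library of at least 1 group, and called at an adjusted p under 0.1 with over 2-fold change. Not tested were Kcnj15 in the sorting experiment, Kcnk15 and Kcnrg in its TRAP libraries, Cacna1f, Kcna7, Kcnh8 and Kcnk15 in Input libraries of the preparation experiment, and Kcna7, Kcnk15 and Kcnrg in its TRAP libraries. Genes were named by rule: 9 glia-linked members and, in each comparison, the 3 called members with the largest rise and the 3 with the largest fall, in full, and by fold change the next called members up to 10 in each direction and the most abundant member of each role in Tissue-Input. Some members that this rule picks are not reported here by name, and counts of members include them. Standard errors are the absolute log2 fold change over the square root of F. CPM are TMM-scaled over all libraries of an experiment, and levels per kb use GENCODE vM21 exon unions. Marker sums are means over libraries of the summed CPM of a list.

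Alternatives were DESeq2 1.42.0 (Wald test) and its size factors, no filter, a filter of 10 counts, one fit of an experiment, each sort method alone, and 96 refits without 1 library. A replicate block was added where mouse numbers in the library titles pair them: log2 residuals of Tissue-TRAP and Tissue-Input correlated at 0.095 to 0.211 within a preparation and at -0.151 to 0.054 otherwise. The sort methods, which shared mice only in part, were compared with each other without a block. The code was tested on simulated data. Reads on the same strand of overlapping exons are uncertain for Kcnk4 (572 bases shared with Catsperz) and Kcnab2 (125 bases, Gm16334). Members and gene lists were chosen with earlier results of these data known.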

Additional observations from a re-analysis of the deposited data

Results flagged for a closer look

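Of 136 gene and group pairs examined, 11 had a library far from the rest of its group, a share not compared with chance. These were Cacna1f at 0.21 CPM in Tissue-TRAP replicate 3, Kcne2 at 1.75 CPM in the same library, Kcnk12 at 13.5 CPM in Tissue-TRAP replicate 2 and Kcng1 at 14.6 CPM in Tissue-TRAP replicate 4 of the sorting experiment. Kcnc2 was 66.4 CPM in Tissue-Input replicate 2, Kcng1 0.059 CPM in Cell-TRAP replicate 3, Kcnh4 0.99 CPM in autoMACS-TRAP replicate 3 and Kcnk1 4.57 CPM in FACSAria-Input replicate 4. In the preparation experiment Kcnd1 was 35.7 CPM in Cell(-)-TRAP replicate 4, Kcng1 16.6 CPM in Tissue-Input replicate 4 and Kcnk9 0.41 CPM in Dounce-Input replicate 1.

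The log2 difference between TRAP and Input was tested between Cell and Tissue, with 3 members called positive and 68 negative. It is given here for 15 of them. It was 1.62 for Kcnd1, 1.34 for Kcnk12 and 1.21 for Cacna1d. It was -1.37 for Kcnk6, -1.83 for Kcnj16, -2.73 for Kcnj10, -2.91 for Kcna2, -3.19 for Kcnj13, -3.40 for Scn9a and -3.54 for Kcnq3. Lower still were Kcne2 at -3.66, Kcna1 at -3.72, Kcna6 at -3.95 and Kcng1 at -4.74. The fitted value for Kcnt2 was -5.85, but its Cell-TRAP libraries are at 0, so this is no bound.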

How the results depend on the processing

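Over all alternatives 483 of 520 counts of channel genes were within 1.5 times the main count, and 5277 of 5399 gene values kept their direction and side of the threshold, with 100 weaker, 21 stronger and 1 reversed. Tissue-TRAP over Input had 2 members higher, 1 with a filter of 10 counts and 1 to 3 over the libraries left out, and 2 lower, 1 in DESeq2 and 1 to 2 over the libraries left out. Cell-TRAP over Input had 7 higher, and 4 with DESeq2's size factors, in DESeq2 or with a filter of 10 counts. Sorted-TRAP over Cell-TRAP had 2 higher, 1 for autoMACS alone or autoMACS to Tyto alone, and 1 to 3 over the libraries left out. Sort methods differed in Input for 7 members, 20 in DESeq2, 15 in one fit and 5 to 12 over the libraries left out, and in TRAP for 3, 18 in DESeq2 and 2 to 6 over the libraries left out. With inhibitors 0 were higher in Input, 1 in DESeq2 and 0 to 1 over the libraries left out, and 0 lower in TRAP, 1 in DESeq2, in one fit or with the mouse as a block, and 0 to 1 over the libraries left out. Kcna3 in Sorted-TRAP over Cell-TRAP reversed, from 0.02 to -1.23 for autoMACS alone. For these the cause was not tested. Refits without 1 library ended the calls of 17 of 328 gene results and added 6. Size factors of DESeq2 moved the median of all genes from -0.29 to -0.61 for the interaction, and one fit moved that of Cell(-)-Input over Tissue-Input from 0.05 to 0.19. Dounce-TRAP libraries had the lowest depth, with a mean floor of 0.89 CPM for a zero.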

Other observations

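Partners of these channels outside the symbol rule (41 genes: calcium channel auxiliary subunits, other potassium and sodium channel partners, and other cation and proton channels) were counted beside them. In Cell-Input against Tissue-Input 3 of 40 tested were higher and 27 lower, beside 28.5% and 17.5% of all genes, and in Sorted-Input against Cell-Input 2 were higher and 30 lower, beside 17.1% and 34.7%. Dounce-Input had 25 of 39 higher and 2 lower than Cell(-)-Input, beside 28.8% and 28.1%. All 14 calcium channel auxiliary subunits were lower in Cell-TRAP than in Tissue-TRAP, beside 29.3% of all genes, and 11 of 14 were higher in Dounce-TRAP than in Cell(-)-TRAP, beside 20.7%. The summed level of the partners was 3005 CPM in Tissue-Input, where the pacemaker channel Hcn2 was most abundant at 261 CPM. It was 1123 CPM in Cell-TRAP and 1129 CPM in Sorted-TRAP, where the proton channel Hvcn1 was most abundant at 373 and 485 CPM.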
